A study of Rattus norvegicus with 8 samples.

Results

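The EGF family ligands and their ErbB receptors were followed in the dentate gyrus (DG) of ovariectomized (OVX) rats after status epilepticus (SE), as 10 genes: the ligands Hbegf, Areg, Ereg, Btc, Tgfa and Nrg1 and the receptors Egfr, Erbb2, Erbb3 and Erbb4. The members were taken by gene name alone, as every non-control spot of the array that carries one of these names. This gave 40 of 43379 spots, 13 of 41012 probes and 10 of 35199 gene names. Which genes and gene lists to follow was decided with earlier results of these data known. Their counts beside those of all genes are therefore descriptive and not an independent test. All 8 rats were adult female Sprague-Dawley of 150 to 200 g, and all had been ovariectomized and given kainic acid. The 4 COS rats (castrated, oil-injected, with SE) received oil, and the 4 CES rats (castrated, estradiol-replaced, with SE) received estradiol (E2), labelled EB in the sample records. Per the labels, each E2 dose was 2 µg, the 4 doses lay 24 h apart with 2 before and 2 after SE, kainic acid was given at 16 mg/kg, and pentobarbital ended SE after 5 h. The methods of the study differ: they place all injections before SE, use a lower dose of kainic acid and end SE with diazepam, and nothing in the files decides between the 2 accounts. Rats without SE were not analysed here, so each value below compares E2 with oil in rats that all had SE.

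The EGF family is made as membrane-anchored precursors whose ectodomains are cut off by ADAM metalloproteases and then bind receptors on the same or neighbouring cells. Amphiregulin (Areg) and TGF-alpha (Tgfa) bind EGFR, whereas HB-EGF (Hbegf), epiregulin (Ereg) and betacellulin (Btc) bind EGFR and ERBB4, and neuregulin 1 (Nrg1) binds ERBB3 and ERBB4. ERBB2 has no known soluble ligand and acts as the preferred dimer partner, and ERBB3 has little kinase activity of its own. In the brain, HB-EGF and neuregulins are made by neurons and glia, EGFR is found on reactive astrocytes and progenitor cells, and ERBB4 is found mainly on interneurons.

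Levels are log2 values of the background-subtracted signal relative to the median valid spot of the same channel, each channel being 1 rat, and a difference is CES minus COS. Between 32381 and 38553 spots per COS rat and between 30690 and 35352 per CES rat were valid, meaning a signal at least 2 times the local background, and no spot was saturated. The median difference over the 21332 genes with a spot valid in all rats was −0.25, and each difference is therefore also given relative to that median. Each of the 4 arrays held 2 rats of 1 group, with Cy3 on replicates 1 and 3 and Cy5 on replicates 2 and 4. An effect of single arrays can thus be separated from the group only as far as the 2 arrays of a group differ. CES replicate 2 lay nearer to the COS rats than the other CES rats did for Hbegf, Areg, Cd44 and Sdc1, and their differences are given with and without it. Its position was not particular to these genes: it was also nearest for Shc1, Stat5a, Errfi1, Itgam and Cd68, though not for Egfr. Of the CES rats it had the highest microglia sum (157) and the lowest CA-field sum (12.9) of the lists that follow. Of the marker lists for cell types, the summed level of 11 microglia and macrophage markers ran from 195 to 291 times the channel median in COS and from 72.9 to 157 in CES, with 6 of them lower and 1 higher in CES. The sum of 9 endothelial and pericyte markers ran from 49.8 to 71.6 in COS and from 26.2 to 49.5 in CES, with 5 lower and 2 higher, that of 10 astrocyte markers from 247 to 280 and from 197 to 286, with 3 lower and 2 higher, and that of 6 markers of CA-field neurons from 9.17 to 13.6 and from 12.9 to 29.2, with 4 higher and 1 lower. The sum of 9 interneuron markers ran from 470 to 684 in COS and from 241 to 443 in CES, with 3 lower and 0 higher, and that of 7 markers of oligodendrocyte precursors from 106.7 to 186 and from 79.2 to 123, with 4 lower and 0 higher. For 10 oligodendrocyte markers it ran from 238 to 424 and from 316 to 502, with 2 higher and 0 lower, and for 7 choroid plexus markers from 13.9 to 641 and from 17.5 to 205, with none called. The sum of 7 granule neuron markers ran from 15.6 to 28.1 in COS and from 12.8 to 16.7 in CES, with 3 lower and 0 higher, namely C1ql2 (−1.23, adjusted p = 0.0104 by limma), Dsp (−1.24) and Trpc6 (−0.89). C1ql2 and Calb1 were well above background in all 8 rats, whereas the probe of Prox1, the defining transcription factor of granule cells, was not well above background in any. Beside these counts, 28.3% of all genes were called lower in CES and 5.8% higher. The part of these lists in the results below was not tested.

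Of the 10 genes, 7 had a spot that was valid in all 8 rats. At an adjusted p under 0.05 (limma, Benjamini-Hochberg over all genes tested), 4 of the 7 were lower in CES and 0 were higher, against a background of 28.3% of all genes lower and 5.8% higher, or 34.1% called in either direction. The 4 were the ligands Hbegf, Nrg1 and Tgfa and the receptor Egfr, and 6 of the 7 had an unadjusted p under 0.05. The median difference of the 7 was −0.73, or −0.48 relative to all genes. The values of COS and CES did not overlap for Hbegf, Nrg1 and Tgfa, 3 of the 7, against 21.4% of all genes. All 3 ligands with a valid spot in every rat were lower, with a median difference of −2.59, whereas the 4 receptors had a median difference of −0.10. The ligand median leaves out Areg, Ereg and Btc, and the receptor median includes the dim spots of Erbb3 and Erbb4. The 4 EGF family ligands tested outside these members had a median difference of −0.18, with 0 lower and 1 higher. Scaling decided part of these counts. With the channel median taken only from spots that were valid in every rat, which moved the median of all genes to 0.15, 1 member was lower (Nrg1) and 2 were higher (Erbb2 and Erbb4), against 8.05% of all genes lower and 15.7% higher. With the deposited log2 table or quantile normalization 2 were lower (Hbegf and Nrg1) and 2 higher (Erbb2 and Erbb4), against 9.17% lower and 15.6% higher of all genes in the deposited table and 10.4% and 14.3% with quantile normalization. With loess and Aquantile 1 was lower (Nrg1) and 1 higher (Erbb2), against 8.87% and 14.3%. Of single rats, leaving out COS replicate 3 gave 1 call (Nrg1), against 4.28% of all genes lower and 1.2% higher. Leaving out CES replicate 1 gave 2 (Hbegf and Nrg1), against 11.5% and 2.46%. Leaving out CES replicate 2 gave 5, with Erbb3 added, against 32.7% and 8.7%. The share of all genes called thus moved in the same direction as the count of members.

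**Figure D1:**
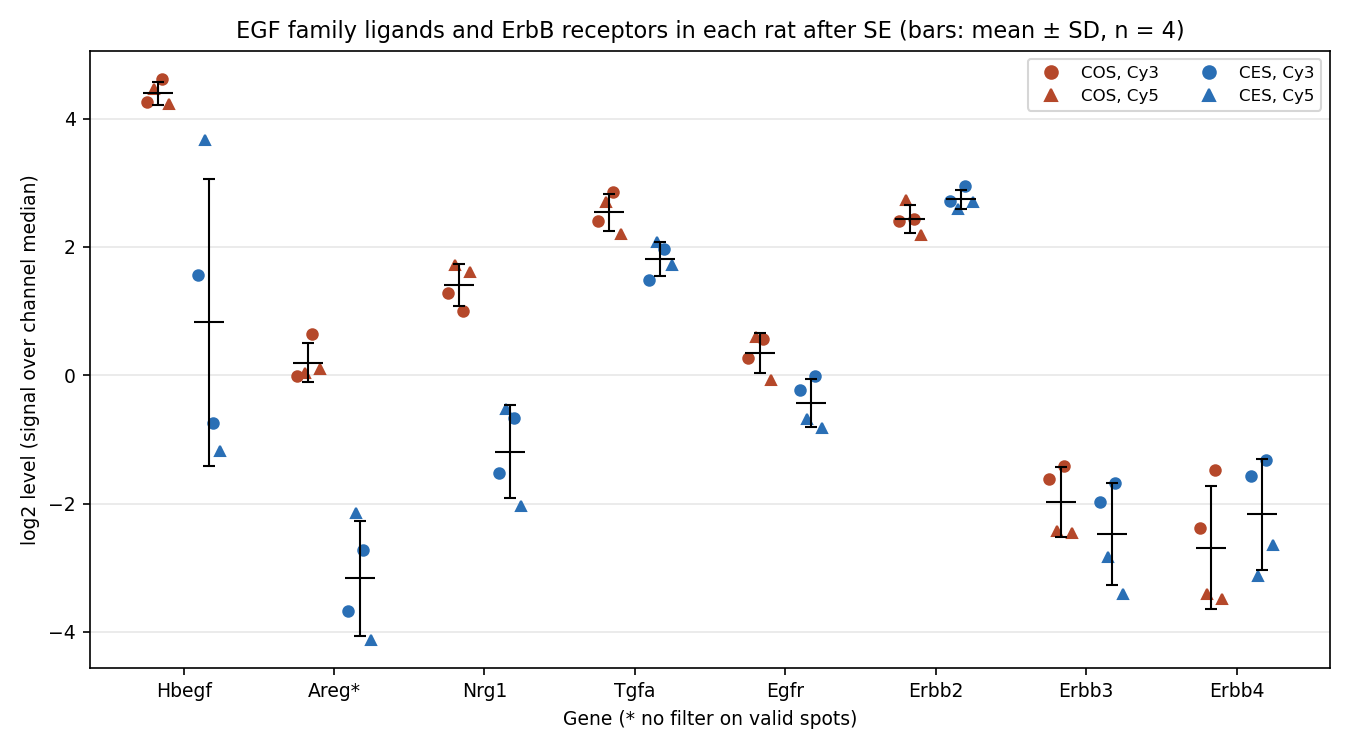
Log2 level of 8 genes in each of the 4 COS and 4 CES rats, relative to the median valid spot of the channel, with circles for Cy3, triangles for Cy5 and bars for the mean and SD. The COS rats lie together between 4.23 and 4.62 for Hbegf while the CES rats spread from −1.18 to 3.66, the groups of Areg, Nrg1 and Tgfa are also apart, and those of the 4 receptors overlap. Areg is shown without the filter on valid spots.

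Hbegf, an activity- and injury-induced ligand, had the largest difference of the 7. Its levels were 4.26, 4.46, 4.62 and 4.23 in COS replicates 1 to 4 and 1.56, 3.66, −0.75 and −1.18 in CES replicates 1 to 4. The COS rats lay close together, and every CES rat lay below them, over a far wider range, with CES replicate 2 close to the COS rats. The difference was −3.57 ± 0.88 (SE, n = 4 per group), or 11.9-fold lower in CES, with an adjusted p of 0.0141 by limma, and −3.32 relative to all genes. Both rats of the second CES array were the lowest, with a mean of −0.96 against 2.61 on the first, and the spot was well above background in all COS rats and in 3 of 4 CES rats. Hbegf was lower in both dyes, by −4.04 between the Cy3 rats and −3.10 between the Cy5 rats. Without CES replicate 2 the difference was −4.65, with an adjusted p of 7.17e-05, without CES replicate 4 it was −2.37 and still called (adjusted p = 0.0125), and without COS replicate 3 it was −3.38 and the call was lost (adjusted p = 0.0788). With the 2 rats of an array averaged, so that 2 arrays were compared with 2, the adjusted p was 0.0801. In RNA from whole DG, fewer cells that make a transcript and less of it per cell cannot be told apart. The probe lies on the minus strand of chromosome 18 from 29143654 to 29143713 of rn4, the build named in the scanner files.

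By a rule set on likeness over the 8 rats, the 5 genes whose centred log2 levels lay nearest to those of Hbegf, of 13680 genes well above background in every rat, were Hspa1a, Serpina3n, Hmox1, Ifitm7 and Gal. Their root mean square differences from Hbegf were 0.33, 0.47, 0.62, 0.64 and 0.65. Hspa1a encodes an inducible heat shock protein, Serpina3n a protease inhibitor of reactive astrocytes, Hmox1 heme oxygenase 1, Ifitm7 an interferon-induced transmembrane protein and Gal the neuropeptide galanin. Each of the 5 was lower in CES, by between −3.50 for Hspa1a and −2.91 for Ifitm7, which follows from the choice by likeness.

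Areg, the amphiregulin gene, was detected in the oil-injected rats and hardly in the others. Its single spot was valid and well above background in all 4 COS rats and in 1 of 4 CES rats, replicate 2, so that it had no place in the comparison across genes. The signal was 7.30, 16.2, 8.75 and 23.0 times the local background in COS replicates 1 to 4 and 1.85, 4.92, 1.62 and 1.77 times in CES replicates 1 to 4. Without the filter, the levels were −0.01, 0.03, 0.64 and 0.10 in COS and −3.68, −2.14, −2.73 and −4.12 in CES. No CES rat reached the lowest COS rat. The difference of these unfiltered levels was −3.36, with a two-sided exact permutation p of 0.0286 (n = 4 per group), the smallest that 4 against 4 rats allow, and −3.70 without CES replicate 2. For the 3 CES rats in which the spot was near background the level is only an upper bound, and with each CES rat set no lower than the lowest signal well above background in its channel, Areg was at least 6.02-fold lower in CES. In the limma fit over all 35199 gene names without the filter the adjusted p was 0.0337, and taken from the processed signals the difference was −3.44.

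The promoter of Areg is shown because the gene is known as a target of CREB, the factor that binds the cAMP response element (CRE) and is activated by neuronal firing. The 250 bases before its start in RefSeq lie on the minus strand of GRCr8 at chr14:17265642-17265891 and hold 1 full CRE, which begins 91 bases before the start and is in capitals.
Areg: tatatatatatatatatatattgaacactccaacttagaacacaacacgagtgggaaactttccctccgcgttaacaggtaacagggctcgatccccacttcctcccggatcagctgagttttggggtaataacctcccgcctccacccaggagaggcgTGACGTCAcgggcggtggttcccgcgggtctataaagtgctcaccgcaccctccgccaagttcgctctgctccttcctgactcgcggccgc
A promoter window was at hand for 7 of the 10 genes, not for Ereg, Erbb3 and Nrg1. The windows searched also ran past the start, for Areg over chr14:17265592-17265891, and the bases after the start are not printed. Searched on both strands, the CRE (TGACGTCA) was in 1 of these 7 windows, that of Areg, and in 1.91% of 27457 windows of the same length. The other motifs searched were AP-1 (TGANTCA), in 7.33% of all windows, the full estrogen response element (GGTCANNNTGACC), in 0.0255%, the EGR site (GCGGGGGCG), in 2.78%, and the E-box (CACGTG), in 6.65%, and none of them was in the 7 windows. These are matches of letters and not measured binding.

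Ereg and Btc, which lie close to Areg on chromosome 14 of GRCr8, were not well above background in any of the 8 rats. Ereg encodes epiregulin and Btc betacellulin. Their spots were between 1.50 and 2.35 times background for Ereg and between 1.26 and 2.46 times for Btc. The differences of the unfiltered levels were 0.07 for Ereg (exact permutation p = 0.943, n = 4 per group) and −0.42 for Btc (exact permutation p = 0.6, n = 4 per group). No fold is given, since both groups were near background and a change could not have been detected at this signal. The COS and CES values overlapped for both genes.

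Nrg1, the ligand of ERBB3 and ERBB4 that acts in myelination, glial development and interneuron synapses, had levels of 1.28, 1.71, 1.00 and 1.61 in COS and −1.53, −0.52, −0.66 and −2.04 in CES. All CES rats lay below all COS rats. The difference was −2.59 ± 0.33 (SE, n = 4 per group), 6.02-fold lower in CES, with an adjusted p of 0.00352 by limma, and −2.33 relative to all genes. Of its 12 spots, 11 were well above background in each COS rat, against 1, 11, 1 and 9 in CES replicates 1 to 4. Nrg1 remained called without any 1 of the 8 rats, with an adjusted p of at most 0.0473, reached without COS replicate 3, and in 24 of 25 alternatives in all. The exception was the methods' t-test, with an adjusted p of 0.0772 after an adjustment over all genes that was added here.

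Of the 3 probes of Nrg1, 2 were designed to the same transcript, and all were read one by one. The probe for the EGF-like domain, the receptor-binding module that neuregulin 1 isoforms share (rn4, chromosome 16, 64093883 to 64093942), is printed 10 times on the array. It averaged 1.43 ± 0.35 in COS and −1.25 ± 0.78 in CES (SD, n = 4), a difference of −2.69 with an adjusted p of 0.00339 by limma over probes. All 8 of its spots that were valid in every rat were lower, by between −3.29 and −1.74. The probe in the 3′ coding part of the same transcript (64124972 to 64125031) averaged 1.07 ± 0.22 in COS and −1.03 ± 1.02 in CES (SD, n = 4), and its difference was −2.10 (adjusted p = 0.00688 by limma). Both probes thus fell in the same direction. The third probe, designed to a transcript of the glial growth factor type (63053889 to 63053948), was not well above background in any rat, and no change of that transcript could be measured.

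**Figure D2:**
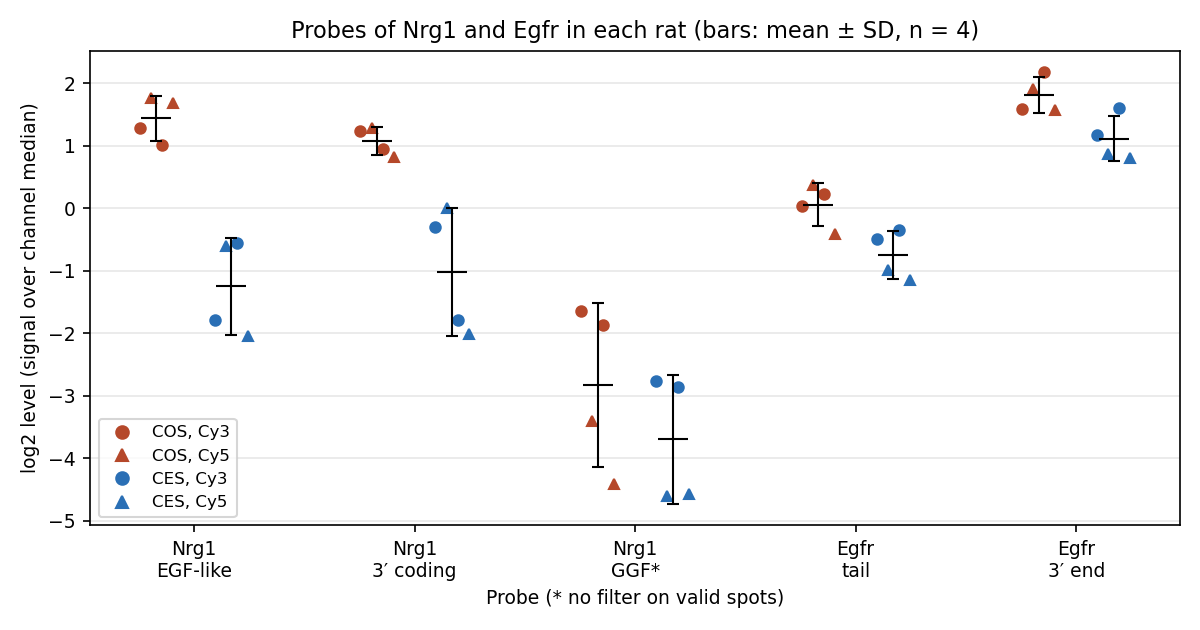
Log2 level of the 3 Nrg1 probes and the 2 Egfr probes in each rat, with circles for Cy3, triangles for Cy5 and bars for the mean and SD of 4 rats. The first 2 Nrg1 probes separate the groups with differences of −2.69 and −2.10, the probe for the glial growth factor type (shown without the filter) lies near background, and both Egfr probes are shifted by −0.80 and −0.69. Levels of different probes are not comparable.

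Tgfa, whose product is the classical EGFR ligand of astrocytes and is induced in reactive glia, had levels of 2.40, 2.70, 2.86 and 2.21 in COS and 1.49, 2.07, 1.96 and 1.72 in CES. The groups did not overlap, but the highest CES rat came close to the lowest COS rat. The difference was −0.73 ± 0.21 (SE, n = 4 per group), 1.66-fold lower in CES, with an adjusted p of 0.0237 by limma, and −0.48 relative to all genes. The call was lost in 12 of 26 alternatives. These were the 4 other scalings (such as scaling on spots valid in every rat, −0.33, adjusted p = 0.165), normexp, no filter, the filter at 3 times background, the methods' t-test, and leaving out COS replicate 1 (adjusted p = 0.054), 2 (0.0639) or 3 (0.137) or CES replicate 1 (0.101). Relative to all genes the difference stayed between −0.62 and −0.38 in all 26 alternatives, though some of them leave this value unchanged by construction. The Tgfa probe lies on the plus strand of chromosome 4 of rn4 from 120437505 to 120437564.

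The receptor probes are shown because they decide what the receptor values can say: those listed here lie in the part of each transcript that codes for the cytoplasmic tail, where phosphorylated tyrosines dock adaptor proteins. They are 5′ to 3′ as in the scanner files, and capitals mark tyrosine codons in the single reading frame without a stop, so no base is marked for Erbb2 and Erbb3, where more than 1 frame has no stop.
Egfr: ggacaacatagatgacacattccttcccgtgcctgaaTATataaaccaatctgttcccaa
Erbb2: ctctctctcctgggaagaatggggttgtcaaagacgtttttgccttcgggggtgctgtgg
Erbb3: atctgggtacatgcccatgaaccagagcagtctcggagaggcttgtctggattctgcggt
Erbb4: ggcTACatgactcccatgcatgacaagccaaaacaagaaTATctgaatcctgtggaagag
In rn4 they lie on chromosome 14 from 97786789 to 97787499 (Egfr), chromosome 10 from 87241824 to 87241883 (Erbb2), chromosome 7 from 1859093 to 1859343 (Erbb3) and chromosome 9 from 66844421 to 66846151 (Erbb4). Those of Egfr, Erbb3 and Erbb4 span more genome than their own length and so cross an intron. Receptor forms that lack the tail, such as secreted ectodomains, are not seen by these probes.

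Egfr, the receptor of most of these ligands, was the one receptor called lower. Its levels were 0.27, 0.60, 0.56 and −0.07 in COS and −0.23, −0.68, −0.02 and −0.82 in CES. The groups overlapped, since CES replicate 3 lay just above COS replicate 4, and within each dye every CES rat lay below every COS rat. The difference was −0.78 ± 0.20 (SE, n = 4 per group), 1.71-fold lower in CES, with an adjusted p of 0.0172 by limma, and −0.52 relative to all genes. All 10 spots of the tail probe were lower (−0.80, adjusted p = 0.0171 by limma), as was a further probe near the 3′ end of the same transcript, from 97788051 to 97788110 (−0.69, adjusted p = 0.0258). The call was lost in 10 of 26 alternatives. These were the fits without COS replicate 3 (adjusted p = 0.102) or CES replicate 1 (adjusted p = 0.0653) and each of the 4 other scalings, where the difference ran from −0.40 to −0.38. The others were, by limma, normexp (adjusted p = 0.581), no filter (0.0716) and the filter at 3 times background (0.0708), and the methods' t-test (adjusted p = 0.111).

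Erbb2, the dimer partner without a ligand, had levels of 2.40, 2.73, 2.44 and 2.19 in COS and 2.72, 2.59, 2.95 and 2.70 in CES. COS replicate 2 lay among the CES rats, and the other COS rats lay below all of them. The difference was 0.30 ± 0.17 (SE, n = 4 per group) with a 95% confidence interval from −0.09 to 0.69 and an adjusted p of 0.204 by limma. Relative to all genes it was 0.56, and this value stayed between 0.50 and 0.63 in all 26 alternatives, though some of them leave it unchanged by construction. Under the 4 other scalings, the difference of Erbb2 ran from 0.66 to 0.70 and was called higher in CES in each (adjusted p from 0.0239 to 0.0262 by limma).

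Erbb3, the neuregulin receptor of the oligodendrocyte lineage and Schwann cells, and Erbb4, the neuregulin receptor of interneurons, gave dim spots. Erbb3 was valid in all rats but well above background in 2 COS rats and 1 CES rat, and its levels were −1.61, −2.42, −1.41 and −2.45 in COS and −1.97, −2.84, −1.67 and −3.41 in CES. The Cy3 rats were above the Cy5 rats in both groups, and within each dye the CES rats were the lower. The difference was −0.50 ± 0.19 (SE, n = 4 per group), which did not pass the threshold (adjusted p = 0.0634 by limma), while it passed when CES replicate 2 was left out (adjusted p = 0.0389) or CES replicate 3 (adjusted p = 0.0333). The summed markers of oligodendrocyte precursors ran from 106.7 to 186 in COS and from 79.2 to 123 in CES, with overlap, and 4 of 7 were called lower. Those of oligodendrocytes ran the other way, from 238 to 424 in COS and from 316 to 502 in CES, with 2 of 10 called higher. The part of either list in the Erbb3 value was not tested.

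Erbb4 was well above background in 0 COS rats and 2 CES rats. Its levels were −2.38, −3.41, −1.47 and −3.49 in COS and −1.57, −3.13, −1.32 and −2.65 in CES. The groups overlapped, and the mean difference was 0.48 among the Cy3 rats, where CES replicate 1 lay below COS replicate 3, and 0.56 among the Cy5 rats. The measured difference was 0.52 ± 0.22 (SE, n = 4 per group) and was not called (adjusted p = 0.0954 by limma). No fold is given, since the COS level is only an upper bound and only 2 CES rats were well above background. The summed interneuron markers ran from 470 to 684 in COS and from 241 to 443 in CES. This sum is of linear levels, so bright genes such as Npy and Sst weigh most. Of the 9 markers, Npy (−1.84), Sst (−1.56) and Vip (−1.06) were called lower and 6 were not called. Of those not called, Pvalb (0.51) and Cck (0.38) were higher in CES and Gad1, Gad2, Slc32a1 and Reln were lower. The part of these markers in the Erbb4 value was not tested. Erbb4 was called higher with scaling on spots valid in every rat (0.92, adjusted p = 0.0324), with the deposited log2 table and with quantile normalization. Its difference was −0.0016 after normexp background correction.

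**Figure D3:**
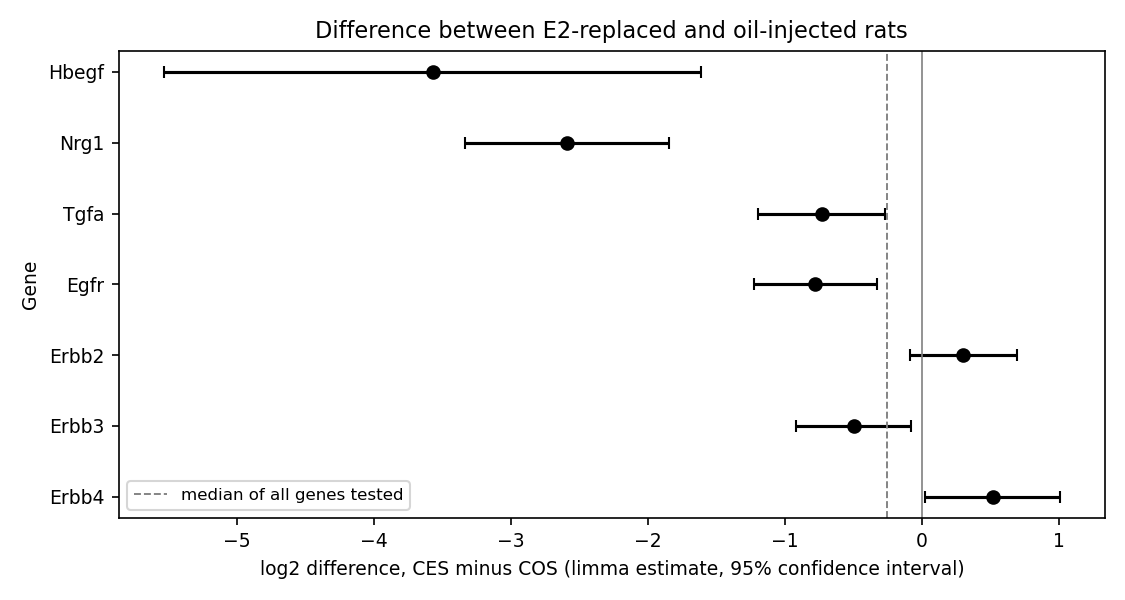
Difference in log2 level between CES and COS for the 7 genes with a spot valid in all rats, with the 95% confidence interval from limma; the dashed line is the median of all genes tested, −0.25. The intervals of Hbegf and Nrg1 lie wholly below that line, those of Erbb2 and Erbb4 wholly above it, and those of Tgfa and Egfr just below it.

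Genes that act around the receptors were taken as 5 lists of 62 names, of which 56 were on the array and 53 had a spot valid in all rats. These lists, too, were chosen with earlier results of these data known. Of the 53, 24 were lower in CES and 2 were higher, with a median difference of −0.54, or −0.28 relative to all genes, against 28.3% of all genes lower and 5.8% higher. Of the 26 called genes, 5 were also called without COS replicate 3, 13 without CES replicate 1 and 15 without COS replicate 1, all of them lower. In the same fits, 4.28%, 11.5% and 17% of all genes were called lower. Scaling on spots valid in every rat gave 9 lower and 4 higher, against 8.05% and 15.7% of all genes, and values of the deposited table gave 12 lower and 3 higher, against 9.17% and 15.6%. No called gene of these lists changed sign in any of the alternatives. Of the 26, 11 were called in the same direction under all 4 other scalings, and 10 under none of them.

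Among the sheddases, which release the ligands, and their regulators, 5 of 10 were lower and 0 were higher, against 28.3% and 5.8% of all genes. Adam17, the main protease for TGF-alpha, amphiregulin and HB-EGF, was lower by −1.05 (adjusted p = 0.00667 by limma), and Rhbdf2 (iRhom2), which carries ADAM17 to the cell surface, by −2.26 (adjusted p = 0.00499). The levels of Rhbdf2 were 1.96, 1.31, 1.58 and 1.02 in COS and −1.02, 0.42, −0.87 and −1.69 in CES, without overlap, and CES replicate 2 was again the highest of the CES rats. Without it Rhbdf2 differed by −2.77, and without COS replicate 3 its call was lost (adjusted p = 0.0519). Its relative Rhbdf1 differed by −0.95, Adam9 by −1.09 and Adam15 by −0.83. Of the 4 other scalings, Adam17 and Rhbdf2 were called in all 4, Adam15 in 3, Adam9 in 2 and Rhbdf1 in 1. None of these 5 genes overlapped between the groups, as was so for 21.4% of all genes.

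Among the adaptors and proximal signal proteins, 7 of 20 were lower and 1 was higher, shares near the 28.3% and 5.8% of all genes. Shc1, the adaptor that links ErbB receptors to Ras, had levels from 2.45 to 2.96 in COS and from 0.52 to 1.92 in CES, and differed by −1.75 (adjusted p = 0.00457 by limma). Stat5a and Stat5b, transcription factors that EGFR and ERBB4 can activate, differed by −1.76 and −1.38. The neuronal adaptor Shc3 differed by −1.21, the adaptors Grb2 and Nck1 by −0.81 and −0.83, and the EGFR substrate Eps8 by −0.65. Grb7, an adaptor of ERBB2 and ERBB3, was the gene called higher (0.51, adjusted p = 0.0464), in 13 of 26 alternatives and in 1 of the 8 that left out a rat, that without CES replicate 2. Of these 8 genes, Shc1, Stat5a, Stat5b and Grb7 were called under all 4 other scalings as well.

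Of the inhibitors and turnover genes of the receptors, 8 of 11 were lower and 0 were higher, against 28.3% and 5.8% of all genes. Errfi1 (Mig6), a feedback inhibitor that binds the ErbB kinase domain and is itself induced by EGFR signalling, had levels of 6.01, 6.51, 6.44 and 6.05 in COS and 4.77, 5.51, 4.87 and 4.67 in CES. The groups of Errfi1 were apart, and it was lower by −1.30 (adjusted p = 0.00475 by limma) and under all 4 other scalings. The other 7 were the inhibitory membrane proteins Lrig1 (−0.79) and Lrig2 (−0.70), the ubiquitin ligases Cblb (−0.59) and Rnf41 (−0.50), the endosomal sorting genes Hgs (−0.62) and Stam (−0.67) and the tetraspanin Cd82 (−0.67). None of these 7 was called under any of the other scalings.

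The largest differences of the lists were in the matrix co-receptors and membrane partners. There, 4 of 8 were lower and 0 were higher, against 28.3% and 5.8% of all genes. Cd44, the hyaluronan receptor that can hold HB-EGF and associate with ErbB receptors, had levels of 5.67, 5.50, 5.92 and 5.41 in COS and 0.10, 4.32, 0.52 and −0.12 in CES. Sdc1 (syndecan 1), a heparan sulfate proteoglycan that binds heparin-binding ligands, had levels of 5.41, 4.60, 5.48 and 4.35 in COS and −0.21, 3.83, −0.77 and −1.29 in CES. In both genes the CES rats lay below the COS rats, 3 of them far below and CES replicate 2 near the COS range, as for Hbegf. The differences were −4.42 ± 0.80 for Cd44 (SE, n = 4 per group, adjusted p = 0.00518 by limma) and −4.57 ± 0.94 for Sdc1 (SE, n = 4 per group, adjusted p = 0.0073 by limma). Without CES replicate 2 they were −5.52 for Cd44 and −5.88 for Sdc1, and over all single rats left out they ran from −5.52 to −3.63 and from −5.88 to −3.58. Both calls were lost without COS replicate 3 (adjusted p = 0.056 for Cd44 and 0.0667 for Sdc1). Sdc4 (syndecan 4) was lower by −1.43, and Cd9, a tetraspanin partner of the HB-EGF precursor, by −1.23. Cd44, Sdc1 and Sdc4 were called under all 4 other scalings and Cd9 under none of them. Cd44 is also made by reactive astrocytes and by microglia, whose summed markers are given above, and their part in it was not tested.

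Of the other EGF family ligands, 0 of 4 were lower and 1 was higher, against 28.3% and 5.8% of all genes. Nrg3, a neuronal neuregulin that binds ERBB4, had levels of −0.38, −0.76, 0.00 and −0.84 in COS and 0.24, −0.22, 0.25 and −0.31 in CES. The groups overlapped, and in each dye every CES rat was the higher. The difference was 0.48 ± 0.16 (SE, n = 4 per group, adjusted p = 0.039 by limma), opposite in sign to that of Nrg1. It was called under all 4 other scalings and in 16 of 26 alternatives, but was lost without any 1 of the COS rats (adjusted p from 0.073 to 0.148), without CES replicate 1 (0.0953) and without CES replicate 2 (0.0575).

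**Figure D4:**
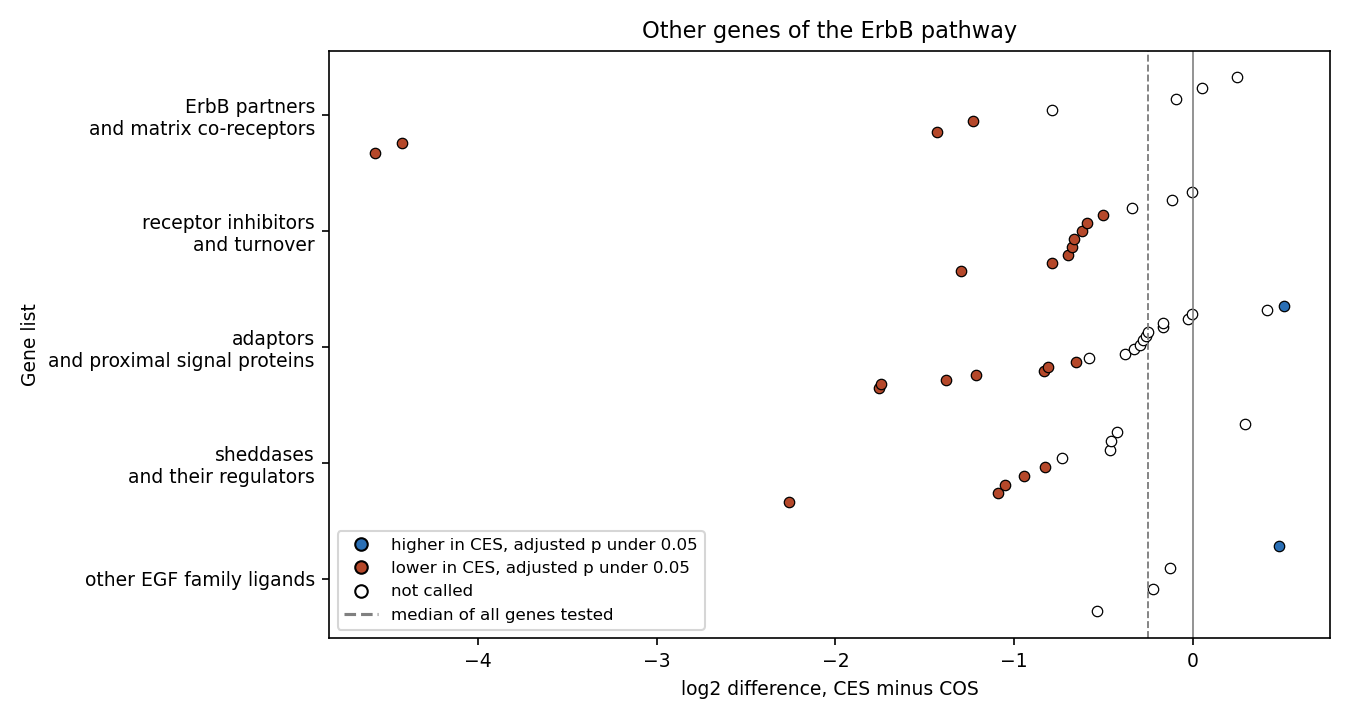
Difference in log2 level between CES and COS for the 53 genes of the 5 lists, 1 point per gene, filled where the adjusted p by limma was under 0.05; the dashed line is the median of all genes tested, −0.25. Sdc1 and Cd44 lie farthest to the left at −4.57 and −4.42, Rhbdf2 lies at −2.26, and the genes called higher are Nrg3 (0.48) and Grb7 (0.51).

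Setting each difference against the median of all genes in the same analysis cancels, by construction, a shift that all genes share. Scaling on spots valid in every rat is such a shift and left these relative values unchanged. The models without the array block or dye term or with the replicate block, the methods' t-test and arrays as replicates also left them unchanged. The ranges on this relative scale therefore reflect the other alternatives. On that scale Hbegf ran from −4.37 to −2.09 and Nrg1 from −2.73 to −1.49 over their alternatives, Tgfa from −0.62 to −0.38, Egfr from −0.67 to −0.33, Erbb3 from −0.45 to −0.10, Erbb4 from 0.14 to 0.90 and Erbb2 from 0.50 to 0.63. No gene changed side of the median in any alternative in which it was fitted. For the alternatives that leave the relative value unchanged, this was fixed in advance.

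**Figure D5:**
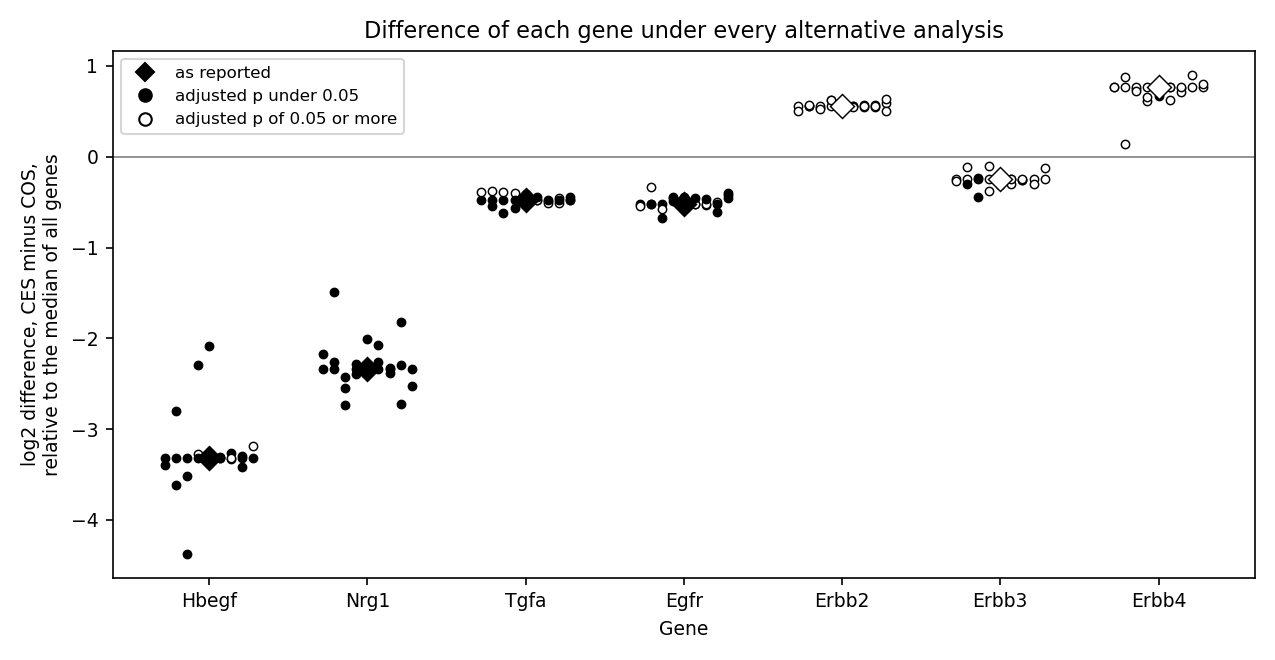
Difference in log2 level between CES and COS of each gene, relative to the median of all genes in the same analysis, as reported (diamonds) and under each alternative (circles), filled where the adjusted p was under 0.05. The p-values test the difference itself, not the difference from the median. Hbegf, Nrg1, Tgfa, Egfr and Erbb3 stay below the median and Erbb2 and Erbb4 above it, with Erbb4 closest at 0.14 after normexp.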

How the data were processed

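Total RNA from the DG of 8 rats was hybridized to 4 2-colour Agilent arrays on 1 slide, each with 1 Cy3 and 1 Cy5 rat of a single group. The authors deposited, per array, the intensity of each spot and its local background and a processed intensity from Agilent Feature Extraction 10.7.3.1 (version per the submitters' processing notes). They also deposited a table of log2 values relative to the channel median, which here served as an alternative. Following the study's methods, mean signal minus background median was divided by the median of the channel's valid spots (at least 2 times background), and log2-transformed. Averaging per gene name only those spots that were valid in every rat was a choice made here, and the authors' further rounds of normalization between dyes and conditions were not applied. The model, in limma 3.58.1 (R 4.3.3), had group and dye as fixed terms and array as a random block (duplicateCorrelation, statmod 1.5.0), two-sided, Benjamini-Hochberg adjusted over 21332 gene names, threshold 0.05. The estimated correlation within arrays was −0.0064, so the block changed little: 7276 genes were called with it and 7215 without it. The p-values thus treat the 8 rats nearly as independent, although arrays were nested in groups. The number of arrays limits the precision: the median standard error was 0.20. On simulated data, the model recovered 66 of 100 genes changed by 1 and 99 of 100 changed by 2 on the log2 scale, with 7 false calls. The simulation drew independent noise for each rat, had no array effect and no shift of all genes, and left most of the 21332 genes unchanged. The real data differ in these respects, so it gives no error rate for the calls made here. The bound for Areg ("at least") sets the COS mean against the mean over CES rats of the higher of the measured level and the lowest signal well above background in that channel. Spots marked as outliers by the software, 8 of the members', were kept.

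All members were named. Of the pathway lists the called genes were named, and for the called member with the largest fall the 5 genes of smallest root mean square difference. The members and lists were chosen with earlier results of these data known. Correlations of the deviations of same-numbered rats were 0.32, 0.21, 0.29 and 0.34, but same-numbered rats also carried the same dye, and between rats of 1 dye the correlations were −0.06 (Cy3) and −0.04 (Cy5). Alternatives were normexp (offset 50), processed intensities, loess with Aquantile, quantile normalization, scaling on spots valid in every rat, no filter (floor 0.01), a filter at 3 times background or at well above background, models without the array block or the dye term or with a replicate block, the brightest probe, RefSeq names, the methods' t-test (unequal variances), the deposited table, and leaving out each rat. The t-test was adjusted over all genes here. The study describes a correction only for redundant spots of a gene, with a fold cut-off for each gene that was not applied here. Chosen after seeing the data were the mean over probes, arrays as replicates, and leaving out outlier spots. The other 4 scalings in the text are loess with Aquantile, quantile normalization, scaling on spots valid in every rat and the deposited table. Python 3.11.15 with pandas 2.3.3 and matplotlib 3.10.9 handled sequences and figures.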

Additional observations from a re-analysis of the deposited data

How the results depend on the processing

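Over all genes, 7276 were called (1238 higher, 6038 lower in CES). The split turned to 3042 higher and 1892 lower with loess and Aquantile, 3053 and 2220 with quantile normalization, 3348 and 1718 with scaling on spots valid in every rat, and 3275 and 1927 with the deposited table, where the median of all genes was 0.06, 0.06, 0.15 and 0.12. Calls over all genes, among the members and in the pathway lists were 586, 2 and 4 with normexp, 3199, 2 and 12 without the filter, 4100, 2 and 16 at 3 times background, and 0, 0 and 0 with the methods' t-test, which gave 6103, 4 and 23 at an unadjusted p under 0.05 against 9633, 6 and 31 with limma. They were 2 members and 12 pathway genes with loess and Aquantile, 16 pathway genes with quantile normalization, 13 with scaling on spots valid in every rat and 15 with the deposited table. Only 3 members could be tested among spots well above background in all rats, and 2 of them were called. With arrays as replicates 4346 genes and 3 members were called. Of the 26 pathway calls 19 were then kept, all of them lower, so those of Nrg3 and Grb7 were lost.

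Leaving out 1 rat gave between 1171 and 8837 calls over all genes, 1 to 5 among the members and 5 to 29 in the pathway lists. The lowest counts came without COS replicate 3, and without CES replicate 1 they were 2988, 2 and 13, without COS replicate 1 4145, 3 and 15. The cause of these shifts was not tested. With the replicate block, 7865 genes, 4 members and 27 pathway genes were called, the Hbegf difference had an adjusted p of 0.0125, and the block changed the call of no member.

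Calls were kept in 19 of 25 alternatives for Hbegf, 24 of 25 for Nrg1, 14 of 26 for Tgfa and 16 of 26 for Egfr. Erbb2 was called higher in 4 of 26, Erbb4 in 3 of 24, and Erbb3 lower in 3 of 24. Signs reversed for Erbb4 with normexp (−0.0016) and for Ereg with the processed signal (−0.13), both from spots near background. Hbegf lost its call with loess and Aquantile (adjusted p = 0.0524), scaling on spots valid in every rat (0.0506), no filter (0.056), the methods' t-test (0.174) and arrays as replicates (0.0801). Dim spots limit Areg, Ereg, Btc, Erbb3 and Erbb4. The outlier check found no flagged value in the 20 groups of 4 rats examined, 1 per gene and treatment.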
